A study of Homo sapiens with 36 samples.

Results

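The caveolin and cavin genes measured here were CAV1, CAV2, CAVIN1, CAVIN2 and CAVIN3, which encode the coat of caveolae. They were chosen by name, with the older symbols PTRF for CAVIN1, SDPR for CAVIN2 and PRKCDBP for CAVIN3. Earlier results of these data were known when they were chosen. The arrays carried 8 probes for these 5 genes among 47323 probes in all, and 20046 gene symbols had at least 1 probe. CAV1 was read by ILMN_2149226 (probe 1) and ILMN_1687583 (probe 2), CAV2 by ILMN_1735220 (probe 1), ILMN_1658835 (probe 2) and ILMN_2360730 (probe 3), CAVIN1 by ILMN_1757552, CAVIN2 by ILMN_1715991 and CAVIN3 by ILMN_1793476. In the annotation table given, CAV1 and CAV2 lie next to each other on chromosome 7, with 0 genes between them, and CAVIN1, CAVIN2 and CAVIN3 lie on chromosomes 17, 2 and 11.

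The study profiled total RNA of 3 prostate cancer cell lines on Illumina bead arrays with 1 dye, 36 arrays in 12 groups of 3. DU 145 is labelled radiation resistant, and PC-3 and 22Rv1 are labelled radiation sensitive. According to the series' design text, vorinostat, an inhibitor of histone deacetylases, made DU 145 more sensitive to radiation at both oxygen levels and did not do so in the other lines, and the RNA was taken before any irradiation. Each line gave 4 groups: normoxia with solvent, hypoxia (0.2% oxygen for 24 h) with solvent, normoxia with vorinostat (1 µM for 24 h), and both exposures together. The normoxia groups named solvent in the sample titles are labelled untreated elsewhere. All 12 groups were grown in the same medium with fetal calf serum and harvested below full confluence. The labels do not say whether the 3 arrays of a group came from separate cultures, so p-values measure the spread between these arrays, which may be technical. Each line stands for 1 tumour, so a difference between lines is a difference between 3 established lines and not between radiation phenotypes.

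Caveolae are small flask-shaped pits of the plasma membrane that are rich in cholesterol, flatten when the membrane is stretched and hold signalling proteins. Caveolin-1 is the integral membrane protein they are built from, caveolin-2 joins it in mixed oligomers and depends on it to reach the cell surface, and the cavins are soluble proteins that coat the pit. Cavin-1 is needed for a pit to form, cavin-2 helps to shape it, and cavin-3 binds protein kinase C delta. Without cavin-1, caveolin-1 stays in the membrane without forming caveolae, a state for which PC-3 has served as a model.

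An array value is given below as the normalized log2 signal, on which a step of 1 is a change of 2 times, and a probe was called above background on an array where its detection p-value was under 0.01. Between 14242 and 16900 probes (30.1% to 35.7%) were above background per array. Replicate arrays correlated at 0.985 to 0.995 over the 12360 genes tested, and each of the 36 arrays was most like another array of its own group. The number of arrays per group, 3, limits the precision of every value. The 4 epithelial markers KRT8, KRT18, EPCAM and CDH1 were above background on every array. Of the prostate luminal markers with a probe, KLK2 and TMPRSS2 were above background in 22Rv1, TMPRSS2 alone in PC-3 and 0 of 3 in DU 145.

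All 5 genes passed the detection filter of 3 arrays above background, by very different margins. CAV1 probe 1 was above background on 32 arrays, CAV2 probe 1 and CAVIN1 on 24 each, CAVIN3 on 12 and CAVIN2 on 4. The arrays behind these counts differed by line. DU 145 had CAV1, CAV2, CAVIN1 and CAVIN3 above background on all its arrays, PC-3 had both caveolins and 0 arrays for any cavin, and 22Rv1 had CAVIN1 on all its arrays with CAV2 probe 1, CAVIN2 and CAVIN3 on 0. CAVIN2 and CAVIN3 passed the filter through DU 145 arrays only, so that their higher values there follow from the filter and are given as a description.

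**Figure D1:**
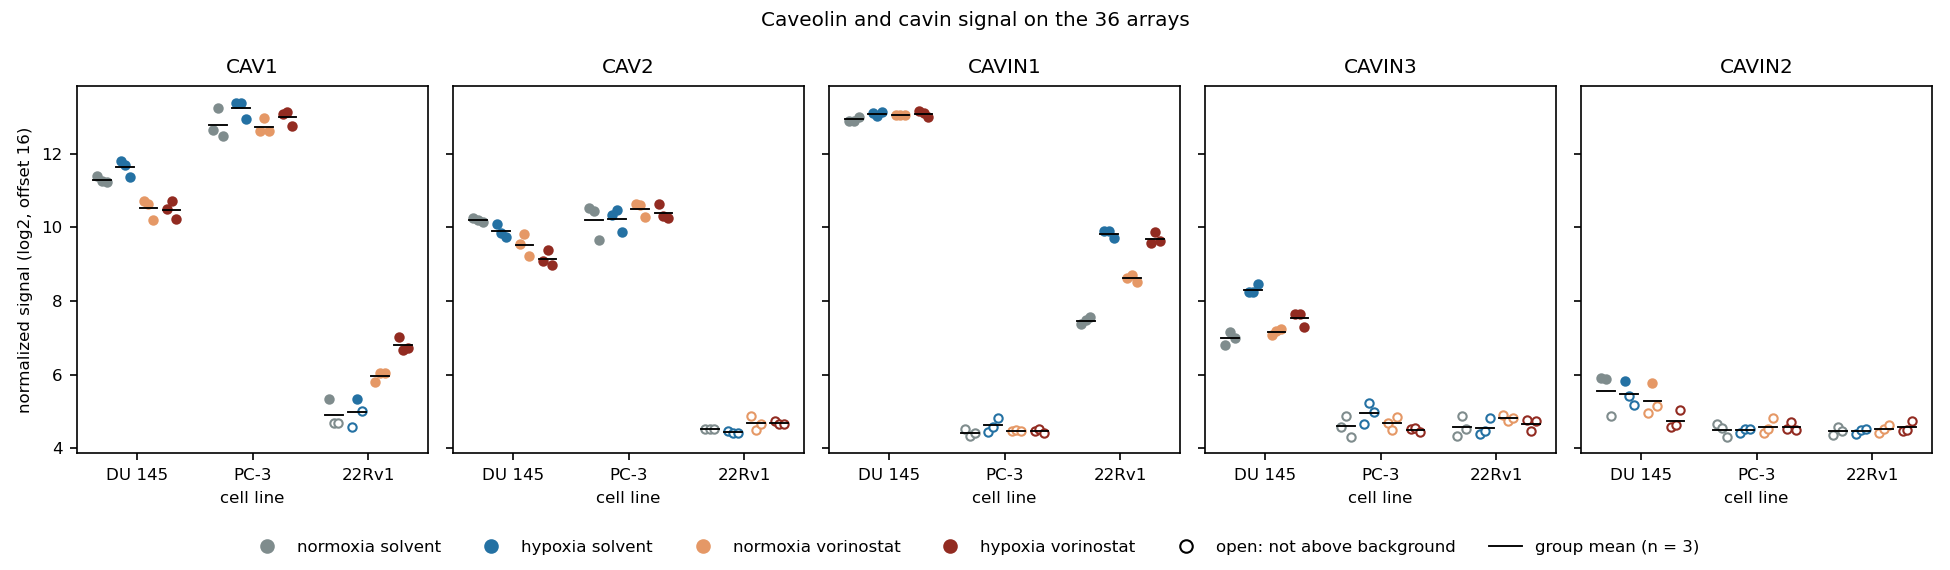
Normalized log2 signal (vertical axis) of the probe that stands for each gene on all 36 arrays, by cell line (horizontal axis) and by oxygen and drug (colours). Filled points were above background and open points were not, and bars are means of 3 arrays. PC-3 has filled points for CAV1 and CAV2 only, and 22Rv1 has them for CAVIN1 and, with vorinostat and on 2 solvent arrays, for CAV1.

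CAV1 and CAV2 are neighbours, and both fell with vorinostat in DU 145 as described below, so the 250 bases before their start sites are shown for comparison. They are from RefSeq on GRCh38.p14, plus strand, CAV1 at chr7:116524759-116525008 and CAV2 at chr7:116499488-116499737. Capitals mark matches on either strand to GGGCGG, the GC box read by SP1-type factors, and to ACGTG, the core of the hypoxia response element.
CAV1: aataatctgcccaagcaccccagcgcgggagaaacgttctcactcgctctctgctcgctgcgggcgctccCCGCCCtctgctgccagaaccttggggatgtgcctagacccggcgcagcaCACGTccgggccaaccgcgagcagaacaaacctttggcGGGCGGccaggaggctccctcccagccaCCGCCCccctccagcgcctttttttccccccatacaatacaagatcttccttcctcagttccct
CAV2: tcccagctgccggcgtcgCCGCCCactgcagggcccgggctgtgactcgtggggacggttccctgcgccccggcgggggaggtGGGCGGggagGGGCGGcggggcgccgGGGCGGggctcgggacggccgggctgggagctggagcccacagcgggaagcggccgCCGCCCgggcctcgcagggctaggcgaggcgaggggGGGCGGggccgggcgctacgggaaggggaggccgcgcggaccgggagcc
The CAV2 window is 83.2% G and C and holds 6 GC boxes, and the CAV1 window is 63.6% and holds 3, against a median of 58% over 35116 windows of the same length. CAV1 has 1 match to ACGTG, on the minus strand at position -130 from the start site, and CAV2 has 0. Of all windows, 18.51% hold ACGTG and 42.64% hold GGGCGG, and the 2 motifs do not overlap in these windows. A match is a string of letters and not a bound site. Upstream windows matched by symbol for 3 of the 5 genes, CAV1, CAV2 and CAVIN2.

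The lines were first compared in normoxia with solvent, where 62.3% of the 12360 genes tested passed adjusted p under 0.05 between DU 145 and PC-3, 64.8% between DU 145 and 22Rv1 and 68.4% between PC-3 and 22Rv1. Differences between lines were thus common, and a call for a caveolin or cavin gene is near the background of these comparisons. Adjusted p-values are from limma with Benjamini-Hochberg adjustment over all 12360 genes, and n is 3 arrays per group. In these RNA extracts of whole cultures, fewer cells with a transcript and less of it per cell cannot be told apart.

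CAV1 was highest in PC-3. Its probe 1 read 12.63, 13.23 and 12.48 on the 3 PC-3 arrays, 11.39, 11.25 and 11.24 on the DU 145 arrays and 5.33, 4.68 and 4.67 on the 22Rv1 arrays. The 3 lines did not overlap, and of the 22Rv1 arrays only the first was above background. DU 145 was lower than PC-3 by a log2 difference of -1.49 ± 0.20 (SE, adjusted p = 1.8e-07). DU 145 exceeded 22Rv1 by 6.39 ± 0.20 and PC-3 exceeded 22Rv1 by 7.88 ± 0.20, both against values at the edge of background, with 1 of 3 22Rv1 arrays above it. These sizes depend on the background correction, and without it they were 4.48 and 5.94. Probe 2 gave the same order, with DU 145 lower than PC-3 by -0.96 ± 0.21 (adjusted p = 2.24e-04 over 21376 detected probes, of which 56.7% were called) and 22Rv1 below background on all its arrays.

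CAV2 had overlapping levels in DU 145 and PC-3 and was below background in 22Rv1. Probe 1 read 10.26, 10.19 and 10.13 in DU 145, 10.51, 10.43 and 9.66 in PC-3 and 4.53, 4.51 and 4.53 in 22Rv1. The DU 145 values lay within the range of the PC-3 values. The difference of DU 145 from PC-3 was -0.01 ± 0.18 (adjusted p = 0.963), with a 95% interval of -0.37 to 0.35. A probe below background on every array of a group has only a bound there, set by the dimmest signals above background on those arrays. By that bound CAV2 was at least 30.1-fold higher in DU 145 and at least 30.3-fold higher in PC-3 than in 22Rv1. The bounds depend on the background correction, and without it they were 9.91-fold and 10.01-fold.

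CAVIN1 separated the lines differently. It read 12.90, 12.90 and 12.99 in DU 145, 7.36, 7.48 and 7.56 in 22Rv1 and 4.51, 4.32 and 4.41 in PC-3, where it was below background on all 12 arrays. DU 145 was at least 199-fold higher than PC-3 and exceeded 22Rv1 by 5.46 ± 0.09 (adjusted p = 4.41e-29), and 22Rv1 was at least 4.51-fold higher than PC-3. Without background correction the bounds against PC-3 were 61.9-fold for DU 145 and 2.08-fold for 22Rv1. PC-3, the line with the most CAV1 transcript, was thus the line in which the transcript of its coat partner was not above background.

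CAVIN3 read 6.81, 7.15 and 6.99 in DU 145, and the bound placed it at least 3.23-fold above PC-3 and at least 3.25-fold above 22Rv1, or 1.69-fold for both without background correction. CAVIN2 read 5.90, 5.88 and 4.86 in DU 145 and was above background on 2 of these 3 arrays, with bounds of at least 1.19-fold over PC-3 and 1.20-fold over 22Rv1. Both genes were below background on all 24 arrays of PC-3 and 22Rv1, where the CAVIN2 signal as deposited was between 87.7 and 113.3 against 97.7 to 153.4 in DU 145.

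Over all 12 groups, the CAV1 order ran from PC-3 hypoxia solvent (13.23 ± 0.25, mean ± SD) through the other PC-3 groups (12.99 ± 0.20 with both exposures, 12.78 ± 0.40 in normoxia with solvent and 12.74 ± 0.19 in normoxia with vorinostat) to DU 145. DU 145 stood at 11.62 ± 0.22 in hypoxia and 11.29 ± 0.08 in normoxia with solvent, and at 10.51 ± 0.27 in normoxia and 10.47 ± 0.25 in hypoxia with vorinostat. 22Rv1 followed at 6.80 ± 0.19 with both exposures, 5.97 ± 0.14 with vorinostat in normoxia, 4.97 ± 0.38 in hypoxia and 4.90 ± 0.38 in normoxia with solvent. Neighbours within PC-3, the vorinostat groups of DU 145 and the solvent groups of 22Rv1 differed by less than their spread.

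The order for CAV2 placed the PC-3 groups between 10.20 ± 0.47 and 10.50 ± 0.20, and these neighbours overlapped. DU 145 ran from 10.19 ± 0.06 in normoxia and 9.90 ± 0.18 in hypoxia with solvent to 9.53 ± 0.30 and 9.15 ± 0.22 with vorinostat. For CAVIN1, the DU 145 groups lay between 12.93 ± 0.05 and 13.08 ± 0.06. They were followed by 22Rv1 in hypoxia with solvent (9.83 ± 0.11) and with vorinostat (9.69 ± 0.15), which overlapped, and then by 22Rv1 in normoxia with vorinostat (8.61 ± 0.09) and with solvent (7.47 ± 0.10), which did not.

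The first exposure compared was vorinostat against solvent, as the mean over both oxygen levels. Both caveolin genes fell in DU 145, CAV1 rose in 22Rv1, and neither passed the test in PC-3. Among the cavins, CAVIN1 rose in 22Rv1 in normoxia, CAVIN3 fell in DU 145 in hypoxia, and CAVIN2, close to background, was called lower in DU 145. In DU 145, 4 of the 5 genes were called, all lower, where 52.6% of all genes tested were called and 24.7% were called lower. CAVIN2 is among these 4, and it passed the detection filter mostly through DU 145 solvent arrays, so its call is given as a description. In PC-3, 0 of 5 were called against 39.5% of all genes, and 3 of these 5 were below background. In 22Rv1, 2 of 5 were called, both higher, against 45.3% of all genes called and 22.9% called higher, and the other 3 were below background on every array by the probes that stand for them. At single oxygen levels the share of all genes called was 40.7% in normoxia and 41.3% in hypoxia in DU 145, 25.7% and 28.4% in PC-3, and 31.3% and 33.4% in 22Rv1.

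CAV1 in DU 145 read 11.39, 11.25 and 11.24 with solvent and 10.71, 10.63 and 10.20 with vorinostat in normoxia. In hypoxia it read 11.80, 11.70 and 11.37 with solvent and 10.50, 10.71 and 10.21 with vorinostat. All 6 vorinostat arrays lay below all 6 solvent arrays. CAV1 fell by 0.96 ± 0.14 on the log2 scale as the mean of both oxygen levels (adjusted p = 1.25e-06, 0.512 times the solvent level), with -0.78 ± 0.20 in normoxia and -1.15 ± 0.20 in hypoxia. Both single-oxygen values were called, at adjusted p of 0.00255 and 2.92e-05, and the difference between them was not (-0.37 ± 0.29, adjusted p = 0.704).

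CAV2 in DU 145 read 10.26, 10.19 and 10.13 with solvent against 9.56, 9.81 and 9.21 with vorinostat in normoxia. In hypoxia the values were 10.10, 9.85 and 9.75 against 9.09, 9.39 and 8.97. The solvent and vorinostat arrays did not overlap at either oxygen level. CAV2 fell by 0.71 ± 0.13 (adjusted p = 1.84e-05, 0.613 times the solvent level), with -0.67 ± 0.18 in normoxia and -0.75 ± 0.18 in hypoxia. The upstream windows of these neighbours are those printed above. This is the reading of probe 1, and the other 2 CAV2 probes, described below, did not pass the test. With the 3 probes averaged, the mean fall was -0.36 and was still called.

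In PC-3 neither caveolin passed. CAV1 read 12.63, 13.23 and 12.48 with solvent and 12.62, 12.96 and 12.63 with vorinostat in normoxia, and 13.38, 13.37 and 12.94 against 13.09, 13.13 and 12.75 in hypoxia. The groups overlapped at both oxygen levels. The mean difference was -0.14 ± 0.14 (adjusted p = 0.481), with a 95% interval of -0.44 to 0.15. For CAV2 it was 0.24 ± 0.13 (adjusted p = 0.141), with an interval of -0.02 to 0.49, and the CAV2 arrays overlapped as well. In every PC-3 group the lowest CAV2 reading was that of replicate 3. It read 9.66 and 10.27 in normoxia and 9.86 and 10.25 in hypoxia, with solvent and with vorinostat. With array weights the CAV2 value was 0.35 and was called (adjusted p = 0.0357). It was also called with the replicate number as a block (0.24, adjusted p = 0.026), although the numbers were not taken as pairs.

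The drug effects of DU 145 and PC-3 themselves differed, where 31% of all genes had such a difference. CAV1 had a difference of -0.82 ± 0.20 (adjusted p = 0.0023) and CAV2 one of -0.94 ± 0.18 (adjusted p = 1.28e-04), DU 145 minus PC-3. With the probes of CAV2 averaged its difference was -0.63. Both lines had these 2 genes above background on every array.

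CAV1 moved in the opposite direction in 22Rv1. It read 5.33, 4.68 and 4.67 with solvent against 5.81, 6.05 and 6.04 with vorinostat in normoxia, and 4.58, 5.34 and 5.00 against 7.01, 6.65 and 6.73 in hypoxia. The groups did not overlap, and the gene was above background on 2 of 6 solvent and 6 of 6 vorinostat arrays. It rose by 1.45 ± 0.14 (adjusted p = 9.05e-10), with 1.07 ± 0.20 in normoxia and 1.82 ± 0.20 in hypoxia. Since most solvent values were not above background, the size depends on the background correction. Without it the mean was 0.57, the hypoxia value 0.76 and the normoxia value 0.37, and the last was not called (adjusted p = 0.0578). From the authors' processed values the normoxia value was 0.38 (adjusted p = 0.0564). CAV1 probe 2 was above background on 0 of the 12 arrays of 22Rv1, so the rise rests on probe 1.

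Even with vorinostat the CAV1 level of 22Rv1 stayed far under that of the other lines. Its highest array, at 7.01, was below the lowest DU 145 array, at 10.20. The drug effect differed between DU 145 and 22Rv1 by -2.41 ± 0.20 (adjusted p = 8.66e-11), where 39.4% of all genes had a called difference. Between PC-3 and 22Rv1 it differed by -1.59 ± 0.20 (adjusted p = 4.03e-07), where 28.2% of all genes had one. Without background correction these differences were -1.49 and -0.71.

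**Figure D2:**
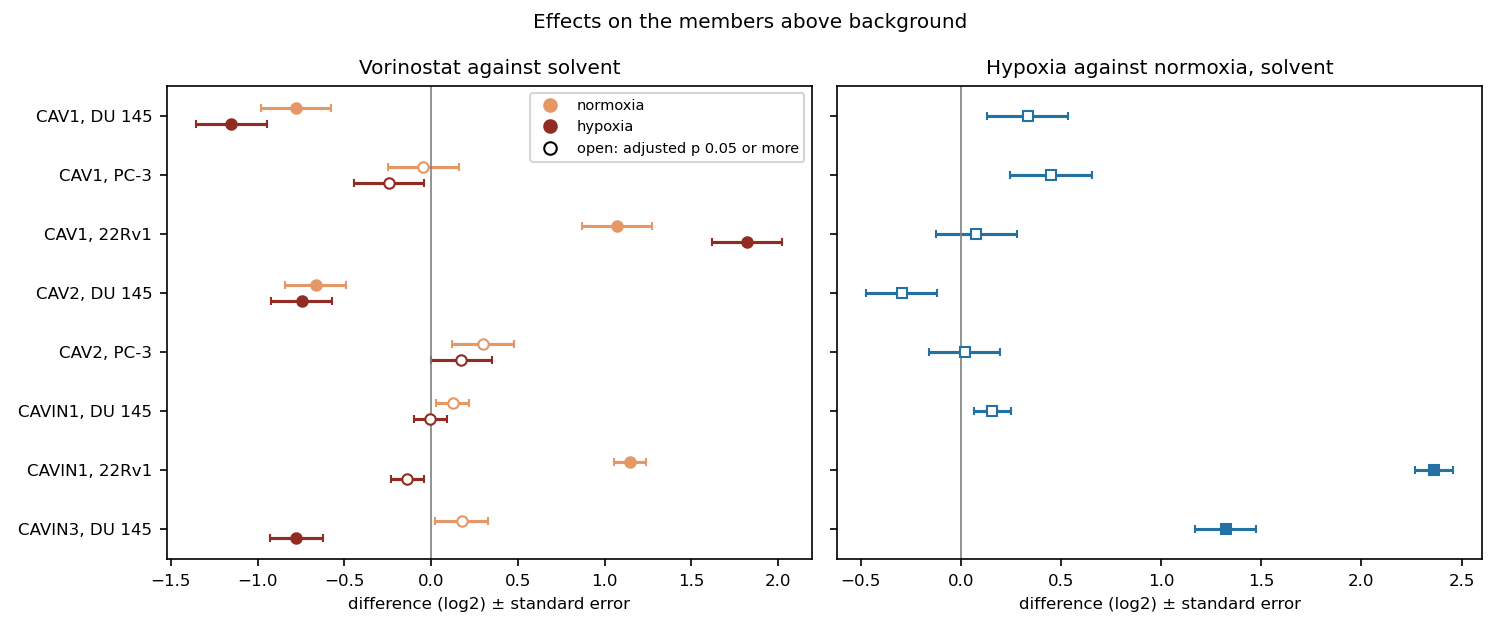
Log2 differences with standard errors (horizontal axis) for each gene and line with values above background, for vorinostat against solvent at each oxygen level (left) and for hypoxia against normoxia on solvent arrays (right). Filled symbols passed adjusted p under 0.05. CAV1 lies left of 0 in DU 145 and right of 0 in 22Rv1, and CAVIN1 in 22Rv1 has the highest hypoxia value at 2.36.

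Among the cavins, CAVIN1 did not pass in DU 145. It read 12.90, 12.90 and 12.99 with solvent and 13.05, 13.06 and 13.04 with vorinostat in normoxia, and 13.09, 13.02 and 13.14 against 13.16, 13.09 and 12.99 in hypoxia. The mean difference was 0.06 ± 0.07 (adjusted p = 0.481), with a 95% interval of -0.07 to 0.19, and its sign turned under median scaling (-0.080) and cyclic loess (-0.0026). The vorinostat arrays lay above the solvent arrays in normoxia and overlapped with them in hypoxia.

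CAVIN1 in 22Rv1 read 7.36, 7.48 and 7.56 with solvent and 8.61, 8.70 and 8.53 with vorinostat in normoxia, a rise of 1.15 ± 0.09 (adjusted p = 5.22e-11). In hypoxia it read 9.90, 9.89 and 9.70 with solvent and 9.58, 9.86 and 9.64 with vorinostat. The normoxia groups were apart and the hypoxia groups overlapped. The hypoxia difference was -0.14 ± 0.09 (adjusted p = 0.288), which became -0.31 (adjusted p = 0.0245) under median scaling. The mean over both oxygen levels, 0.50 ± 0.07 (adjusted p = 1.9e-07), therefore describes neither. Taken as that mean, the drug effect differed from that in DU 145 by -0.44 ± 0.09 (DU 145 minus 22Rv1, adjusted p = 3.08e-04). Of all genes, 39.4% had a called difference there.

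CAVIN3 in DU 145 read 6.81, 7.15 and 6.99 with solvent and 7.08, 7.18 and 7.22 with vorinostat in normoxia, which overlapped (0.18 ± 0.15, adjusted p = 0.391). In hypoxia it read 8.23, 8.23 and 8.45 with solvent and 7.64, 7.64 and 7.30 with vorinostat, which did not overlap, and it fell by 0.78 ± 0.15 (adjusted p = 1.23e-04). The mean of both, -0.30 ± 0.11 (adjusted p = 0.02), lost its call without any 1 of 3 arrays (normoxia solvent replicate 2, hypoxia solvent replicate 3 or hypoxia vorinostat replicate 3, adjusted p = 0.0593, 0.0565 and 0.0721) and under median scaling (-0.26, adjusted p = 0.0658). It also averages a hypoxia value that was called with a normoxia value of the other sign that was not.

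CAVIN2 was close to background in DU 145, above it on 3 of 6 solvent and 1 of 6 vorinostat arrays. It passed the detection filter on these arrays alone, most of them solvent arrays, so its lower values with vorinostat are given as a description. Its values were 5.90, 5.88 and 4.86 with solvent against 4.95, 5.76 and 5.13 with vorinostat in normoxia, and 5.83, 5.43 and 5.18 against 4.58, 4.62 and 5.03 in hypoxia. The normoxia groups overlapped and the hypoxia groups did not. The mean difference was -0.50 ± 0.14 (adjusted p = 0.00398), and for hypoxia alone, where 0 of 3 vorinostat arrays were above background, the bound was at least 1.07-fold lower. No fold could be bounded without hypoxia solvent replicate 1 or under median scaling. Without background correction the mean difference was -0.17 and the normoxia one -0.095. With DU 145 fitted alone the mean difference was not called (adjusted p = 0.0573), and neither was the hypoxia one (adjusted p = 0.0612). In normoxia the difference was -0.27 ± 0.20 (adjusted p = 0.324), and without normoxia solvent replicate 3 it was -0.61 (adjusted p = 0.00925).

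The second exposure was hypoxia against normoxia on the solvent arrays, where 14.7% of all genes were called in DU 145, 16.9% in PC-3 and 20.2% in 22Rv1. A cavin gene rose in DU 145 and another in 22Rv1, and no caveolin gene passed in any line by the probe that stands for it. In DU 145, 1 of 5 genes was called, higher, as were 7.84% of all genes, in PC-3 0 of 5, and in 22Rv1 1 of 5, higher, as were 9.89% of all genes.

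CAVIN1 in 22Rv1 rose from 7.36, 7.48 and 7.56 to 9.90, 9.89 and 9.70, by 2.36 ± 0.09 on the log2 scale or 5.14 times (adjusted p = 2.29e-18). The lowest hypoxia array lay more than 2 log2 units above the highest normoxia array. In DU 145, with its much higher level, CAVIN1 read 12.90, 12.90 and 12.99 in normoxia and 13.09, 13.02 and 13.14 in hypoxia. Those groups did not overlap, but the difference of 0.16 ± 0.09 was not called (adjusted p = 0.291). The hypoxia effects of the 2 lines differed by -2.21 ± 0.13 (DU 145 minus 22Rv1, adjusted p = 5.76e-13), where 5.76% of all genes had a called difference.

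CAVIN3 in DU 145 rose from 6.81, 7.15 and 6.99 to 8.23, 8.23 and 8.45, by 1.32 ± 0.15 or 2.50 times (adjusted p = 3.06e-07), with no overlap. Over the 12 alternatives the CAVIN3 rise in DU 145 lay between 0.91 and 1.37 and was called in each. In PC-3 and 22Rv1 it was below background at both oxygen levels, so no effect there can be set against it. In PC-3 under hypoxia, CAVIN3 had an adjusted p of 0.0257 for vorinostat against solvent although all 6 arrays were below background, and no fold is given.

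The caveolins under hypoxia gave smaller values. CAV1 in DU 145 read 11.39, 11.25 and 11.24 in normoxia and 11.80, 11.70 and 11.37 in hypoxia (0.33 ± 0.20, adjusted p = 0.305). In PC-3 it read 12.63, 13.23 and 12.48 in normoxia and 13.38, 13.37 and 12.94 in hypoxia (0.45 ± 0.20, adjusted p = 0.133). Both pairs of groups overlapped. The lack of a call in PC-3 depended on 1 array: without normoxia solvent replicate 2, the highest of its group, the value was 0.68 (adjusted p = 0.0232). With each array left out in turn, the PC-3 value stayed between 0.30 and 0.68. It was also called without background correction (0.44, adjusted p = 0.0364), from the authors' processed values (0.45, adjusted p = 0.0363) and for the mean of both CAV1 probes (0.58, adjusted p = 0.0339). CAV2 differed by -0.29 ± 0.18 in DU 145 (adjusted p = 0.298) and by 0.02 ± 0.18 in PC-3 (adjusted p = 0.962). In 22Rv1 the CAV1 difference was 0.08 ± 0.20 (adjusted p = 0.853), with 1 of 3 arrays above background on either side.

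Whether the drug acted alike at both oxygen levels was tested as the vorinostat effect in hypoxia minus that in normoxia. Such differences were rare, called for 0.728% of all genes in DU 145, 0.0566% in PC-3 and 0.728% in 22Rv1. Of the caveolin and cavin genes, 1 of 5 passed in DU 145, 0 of 5 in PC-3 and 1 of 5 in 22Rv1. The gene in 22Rv1 was CAVIN1, at -1.28 ± 0.13 (adjusted p = 6.6e-07): with vorinostat it rose in normoxia and was not called in hypoxia, where its solvent level was higher. The gene in DU 145 was CAVIN3, at -0.96 ± 0.22 (adjusted p = 0.0271): it fell with vorinostat in hypoxia and was not called in normoxia. The CAVIN3 call was lost without any 1 of 6 arrays (normoxia solvent replicates 1 and 3, normoxia vorinostat replicates 2 and 3, hypoxia solvent replicate 3 and hypoxia vorinostat replicate 3, adjusted p between 0.0567 and 0.105) and with DU 145 fitted alone (adjusted p = 0.0918), while its value stayed between -1.04 and -0.84 over the arrays left out in turn. For CAV1 the same difference was 0.75 ± 0.29 in 22Rv1 (adjusted p = 0.436), and it lay between 0.38 and 0.75 over the 12 alternatives.

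**Figure D3:**
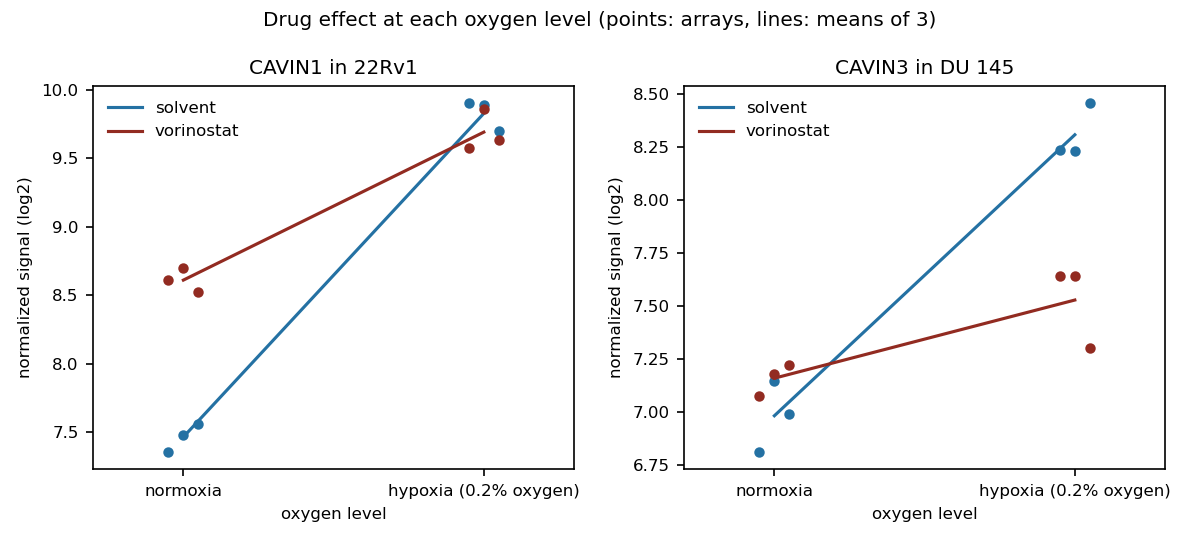
Normalized log2 signal (vertical axis) of CAVIN1 in 22Rv1 and CAVIN3 in DU 145 at both oxygen levels (horizontal axis), with solvent and with vorinostat. Points are arrays and lines join means of 3 arrays. The CAVIN1 lines meet in hypoxia and are apart in normoxia, and the CAVIN3 lines do the opposite.

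CAV1 and CAV2 each had several probes, and the same model fitted to all 21376 detected probes compared them. The CAV1 probes gave like values for vorinostat in DU 145, -0.96 ± 0.14 for probe 1 and -0.99 ± 0.15 for probe 2, where 46.3% of all probes were called. In PC-3 they gave -0.14 ± 0.14 and -0.10 ± 0.15, where 33% were called, and neither passed. Between the lines the drug effect on probe 2 differed by -0.89 ± 0.21 (adjusted p = 0.0018), where 25.3% of all probes had such a difference. For hypoxia in PC-3, CAV1 probe 2 read 9.65, 10.29 and 9.47 in normoxia and 10.58, 10.75 and 10.21 in hypoxia. It was called at 0.71 ± 0.21 (adjusted p = 0.0209), where 13.2% of all probes were, although 1 normoxia array lay above the lowest hypoxia array.

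The CAV2 probes disagreed in DU 145. Against -0.71 ± 0.13 for probe 1, vorinostat gave -0.21 ± 0.13 for probe 2 (adjusted p = 0.194) and -0.17 ± 0.14 for probe 3 (adjusted p = 0.35). CAV2 probe 2 read 9.06, 9.21 and 9.45 with solvent and 9.23, 9.42 and 9.05 with vorinostat in normoxia, which overlapped. In hypoxia it read 9.67, 9.42 and 9.50 against 9.05, 9.26 and 9.05, which did not. For the mean of the 3 probes, the normoxia effect on CAV2 was -0.28 (adjusted p = 0.168) in place of -0.67. The mean of the 3 probes was still called over both oxygen levels (-0.36) and in hypoxia. The size of the CAV2 fall in DU 145 therefore rests on probe 1, the only 1 of the 3 probes called by itself. Whether the probes read different transcripts was not tested.

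In PC-3 the 3 CAV2 probes gave 0.24 ± 0.13, 0.29 ± 0.13 and 0.26 ± 0.14 for vorinostat, none of them called. For hypoxia in PC-3, CAV2 probe 3 gave 0.53 ± 0.20 (adjusted p = 0.0852), which was called from the authors' processed values (adjusted p = 0.0341). In 22Rv1, CAV2 probe 3 was above background on 1 of 12 arrays and probes 1 and 2 on 0.

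**Figure D4:**
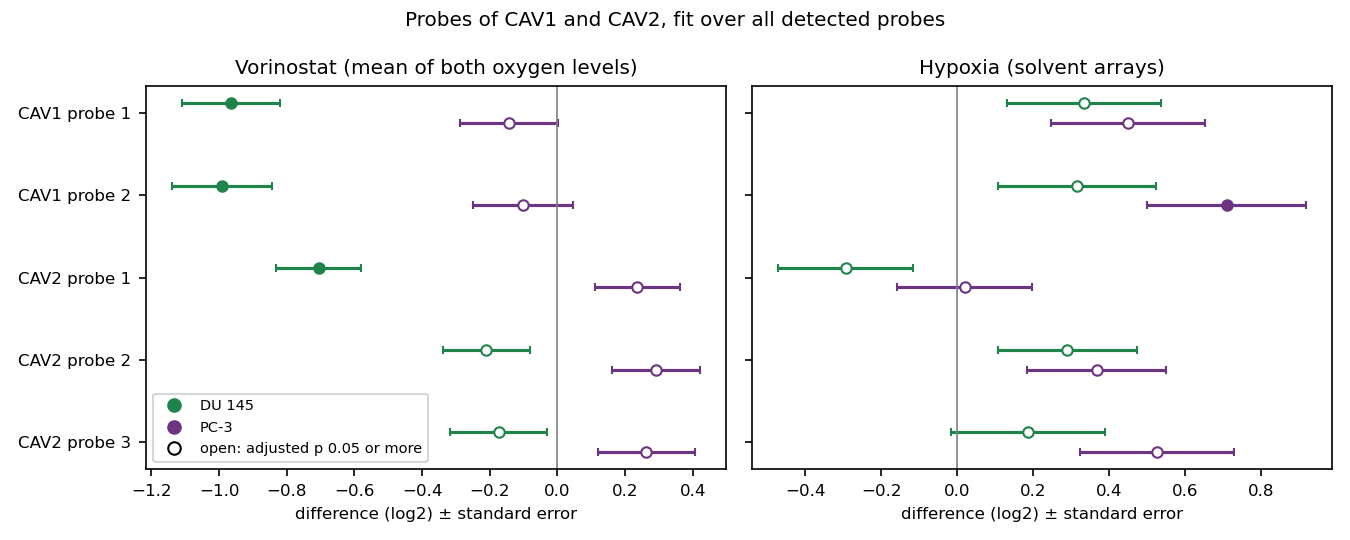
Log2 differences with standard errors (horizontal axis) for the 2 CAV1 and 3 CAV2 probes in DU 145 and PC-3, for vorinostat as the mean of both oxygen levels (left) and hypoxia on solvent arrays (right). Filled points passed adjusted p under 0.05. CAV2 probes 2 and 3 lie closer to 0 than probe 1 in DU 145.

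The likeness of other genes to the members was described by Pearson's correlation over the 12 group means, which share the 3 lines and the same arrays, so that the line differences dominate it. Closest to CAV1 were ACSL4, an acyl-CoA synthetase, at 0.997, the membrane linker MSN at 0.995, BACE2 at 0.994, ZNF185 at 0.993 and PLAUR, the urokinase receptor, at 0.993. Closest to CAV2 were S100A16, ACOT9, the intermediate filament gene VIM, FHL2 and NT5E, at 0.996 to 0.998. These genes share the split of DU 145 and PC-3 from 22Rv1. After each line's mean was taken off, the values were 0.78 to 0.91 for the genes named with CAV1. For those named with CAV2 they were 0.64 to 0.90.

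CAVIN1 was closest to the kinase gene LYN at 0.986, STAT3 at 0.984, IST1, HSPA12A and PRPSAP2. CAVIN3 was closest to PLEKHS1 at 0.987, BCL10-AS1, PPP1R3C, LY6K and AKR1E2. After the line means were taken off, the genes named with CAVIN1 ran from 0.23 for PRPSAP2 and 0.28 for HSPA12A to 0.76 for LYN. Those named with CAVIN3 ran from 0.60 for AKR1E2 to 0.95 for BCL10-AS1. CAV1 and CAV2 correlated at 0.977 with each other, and CAV2 ranked 47 among the 12359 other genes by likeness to CAV1. With each line's mean taken off, the CAV1 to CAV2 value was 0.55. CAV1 and CAVIN1 had -0.26, which became 0.36 with the line means taken off, and CAVIN1 and CAVIN3 had 0.82, which became 0.06.

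Genes that work with caveolae were described in 6 lists of 75 entries, of which 71 had a probe given here and 67 were tested. With vorinostat, 21 of the 67 rose and 18 fell in DU 145, 19 rose and 10 fell in PC-3, and 18 rose and 12 fell in 22Rv1. These shares are near the 52.6%, 39.5% and 45.3% of all genes called in those lines, and nothing particular to the lists is read from them. The median over all genes was 0.0077 in DU 145, -0.00047 in PC-3 and -0.0046 in 22Rv1.

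**Figure D5:**
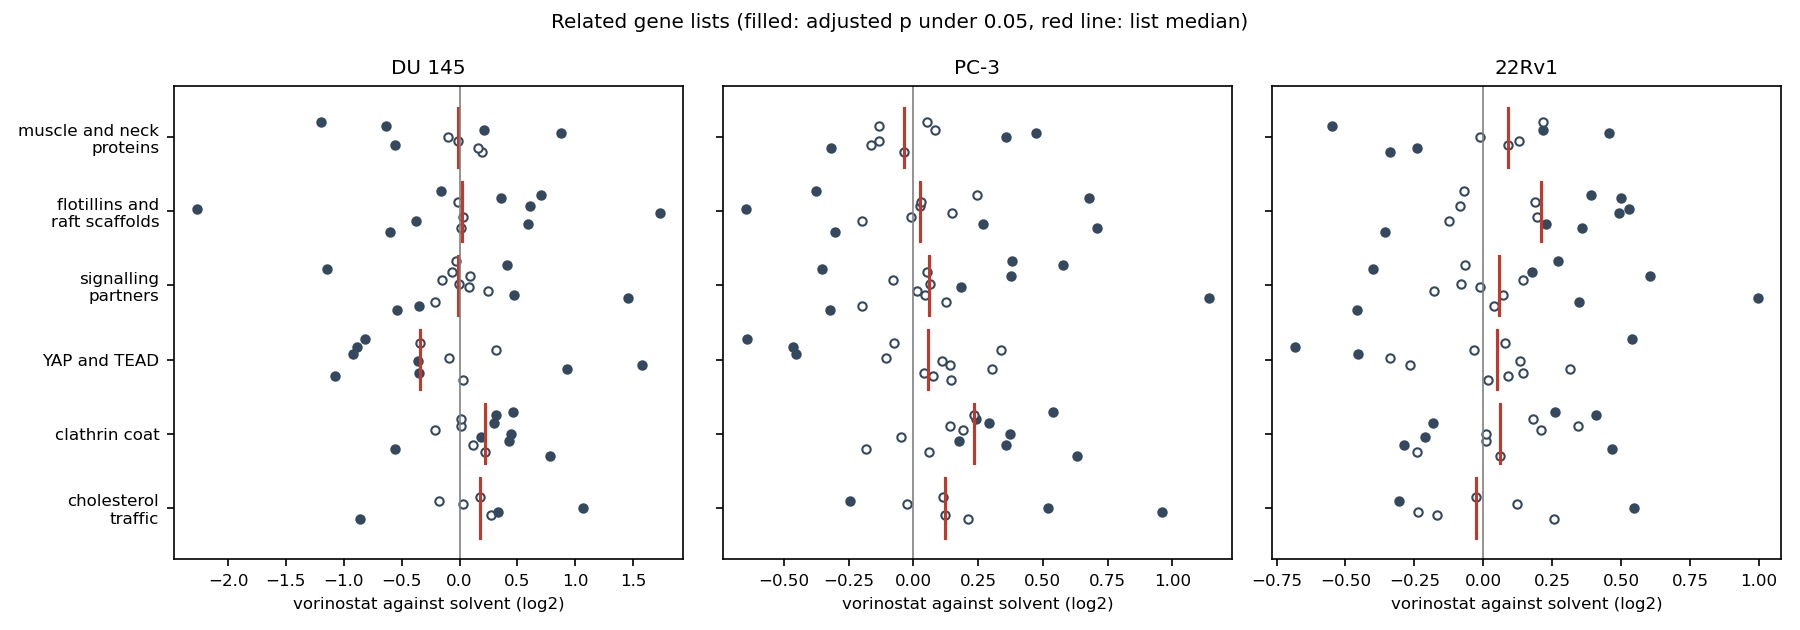
Fitted log2 difference of vorinostat against solvent (horizontal axis, mean of both oxygen levels, a separate scale in each panel) for the tested genes of the 6 lists (rows) in the 3 lines (panels). Filled points passed adjusted p under 0.05, and red lines are list medians, which lie between -0.34 and 0.23.

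The proteins of the caveola neck and the muscle forms numbered 9 tested of 11. In DU 145, 2 rose and 3 fell, with a median of -0.01. ROR1, a receptor that in other cells holds caveolin-1 and cavin-1 together, fell by 1.20 ± 0.12 (adjusted p = 1.07e-09), and PACSIN3, of a family of membrane-bending proteins, fell by 0.64 ± 0.09. PACSIN1 was at least 1.09-fold higher, from 0 of 6 to 5 of 6 arrays above background, and PACSIN2 rose by 0.21 ± 0.07. In PC-3, 2 rose and 1 fell, the latter EHD1 at -0.32 ± 0.08. In 22Rv1, 2 rose and 3 fell, with PACSIN3 at -0.55 ± 0.09 and DNM2, the dynamin that cuts vesicles from the membrane, at -0.34 ± 0.11.

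The raft scaffold list held 12 genes, all tested. In DU 145, 5 rose and 4 fell, with a median of 0.02. MALL, a raft protein reported to bind caveolin-1, fell by 2.27 ± 0.11 (adjusted p = 1.7e-16) while its relative MAL2 rose by 1.73 ± 0.15 (adjusted p = 3.6e-11). MALL also fell in PC-3, by 0.65 ± 0.11, where 3 rose and 3 fell, and in 22Rv1 it was at least 1.10-fold higher, from 0 of 6 to 5 of 6 arrays above background. In 22Rv1, 6 rose and 1 fell, with a median of 0.21. STOM, a stomatin, rose there by 0.50 ± 0.13 and in PC-3 by 0.68 ± 0.13.

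The signalling partners numbered 14 tested of 18. In DU 145, 3 rose and 3 fell, with SRC, the kinase that phosphorylates caveolin-1, at -1.15 ± 0.13 (adjusted p = 5.46e-09) and ABL1 at -0.54 ± 0.07. FYN, a kinase of the SRC family, was at least 2.13-fold higher in DU 145, from 0 of 6 to 6 of 6 arrays above background, and it rose by 1.14 ± 0.11 in PC-3 and by 1.00 ± 0.11 in 22Rv1, where 4 of 6 solvent arrays were above background. SRC fell by 0.35 ± 0.13 in PC-3 and by 0.40 ± 0.13 in 22Rv1, and ABL1 by 0.32 ± 0.07 and 0.46 ± 0.07. In both of these lines 5 of the 14 rose and 2 fell. PRKCD, which encodes the kinase that cavin-3 binds, rose by 0.60 ± 0.09 in 22Rv1.

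The YAP and TEAD list, of transcription factors that caveolae are linked to through membrane tension and of their targets, held 12 genes, all tested. In DU 145, 2 rose and 6 fell, with a median of -0.34. The targets CCN2 and CCN1 rose by 1.58 ± 0.20 and 0.93 ± 0.22, while the target ANKRD1 fell by 1.08 ± 0.16 and the factor TEAD2 by 0.92 ± 0.07. In PC-3, 0 rose and 3 fell, among them YAP1 by 0.64 ± 0.10 and TEAD4 by 0.47 ± 0.11. In 22Rv1, 1 rose and 2 fell, YAP1 by 0.54 ± 0.10 upward and TEAD4 by 0.68 ± 0.11 and TEAD2 by 0.46 ± 0.07 downward.

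The clathrin list, of the other main coat at the plasma membrane, held 13 genes, all tested. In DU 145, 7 rose and 1 fell, with a median of 0.22, and in PC-3, 7 rose and 0 fell, with a median of 0.23. AP2A1, a subunit of the clathrin adaptor, rose by 0.78 ± 0.10 in DU 145 and by 0.63 ± 0.10 in PC-3, and AP2B1 fell by 0.56 ± 0.16 in DU 145 and rose by 0.47 ± 0.16 in 22Rv1. In 22Rv1, 3 rose and 3 fell. The cholesterol traffic list had 7 tested of 9, with 2 up and 1 down in DU 145 and in PC-3 and 1 up and 1 down in 22Rv1. NPC2, a carrier of cholesterol out of lysosomes, rose by 1.06 ± 0.06 in DU 145, 0.52 ± 0.06 in PC-3 and 0.54 ± 0.06 in 22Rv1, and the cholesterol exporter ABCA1 fell by 0.86 ± 0.16 in DU 145.

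Under hypoxia with solvent, the 6 lists together had 2 rises and 5 falls among 67 genes in DU 145, 10 and 4 in PC-3 and 7 and 4 in 22Rv1, against 14.7%, 16.9% and 20.2% of all genes called. ABCA1 rose by 1.27 ± 0.23 in DU 145, PRKCA by 1.27 ± 0.20 and SRC by 0.80 ± 0.18 in PC-3, and EGFR by 1.10 ± 0.16 and PRKCA by 1.00 ± 0.20 in 22Rv1. PHB2, a prohibitin, fell by 0.69 ± 0.11 in DU 145 and by 0.55 ± 0.11 in PC-3.

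Caveolae are abundant in endothelium, smooth muscle, fibroblasts and adipocytes, and markers of these cells were read in the same arrays. Endothelial CDH5, VWF, TEK and KDR were above background on 0 arrays, and PECAM1 was above it in PC-3 only, in all 4 groups. MYH11, DES and CNN1 of smooth muscle and ADIPOQ and PLIN1 of adipocytes were on 0 arrays. ACTA2 came above background with vorinostat in DU 145, where the summed linear signal of the 4 smooth muscle markers was 24.4 to 36.3 with solvent and 44.7 to 69.2 with vorinostat. ACTA2 was also above it on all normoxia arrays of 22Rv1. In PC-3, FABP4 alone of the 4 adipocyte markers was above background, and their sum was 530 to 999 with solvent and 2813 to 5084 with vorinostat. The 5 fibroblast markers summed to 71.3 to 175.9 with solvent and 169.3 to 555.9 with vorinostat in PC-3, with COL1A1 on all arrays and LUM on all vorinostat arrays. In PC-3, COL3A1 was also above background on some arrays of every group, LUM on some solvent arrays and DCN on some normoxia solvent arrays. In 22Rv1, LUM was above it on all normoxia vorinostat arrays, and on some arrays of normoxia with solvent and of both exposures together. COL1A1 was above it there on some vorinostat arrays. In DU 145 the fibroblast sum was 37.6 to 73.9 with solvent and 60.3 to 97.3 with vorinostat, with COL1A1 alone above background. Of the leukocyte markers, PTPRC and CD3E were on 0 arrays, CD68 was above background on every array, and CD14 on at least 1 array of all groups but DU 145 normoxia solvent and 22Rv1 normoxia vorinostat. The sum of these 4 in 22Rv1 was 132.1 to 167.5 with solvent and 205.9 to 307.9 with vorinostat. Their part in the values of the caveolin and cavin genes was not tested.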

How the data were processed

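Total RNA was labelled and hybridised to single-colour Illumina arrays. The deposited table, per the file headers, gives for each array the bead signal intensity of every probe before normalization and its detection p-value, and the authors' processed values of the series matrix are intensities on a linear scale, which were used as an alternative after log2 transformation. BeadStudio 3.1.3.0 is named in the submitters' processing notes, and the step by which the processed values were made is not given in the sources used here. Their ranks within an array matched those of the deposited intensities (rank correlation 1), their medians were 110.8 to 110.9.

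Intensities were background corrected with normexp from the detection p-values, quantile normalized and put on a log2 scale with an offset of 16 (neqc, limma 3.58.1, R 4.3.3). Probes were named through the platform annotation given: 30121 were listed with a symbol and 30113 with 1 symbol, so a gene of a probe without a listed symbol is not analysed here. A gene was tested where a probe had a detection p-value under 0.01 on at least 3 of 36 arrays, and its brightest probe by mean level represented it (12360 genes). A limma model with 1 mean per group over all 36 arrays gave the differences (29.5 residual degrees of freedom after moderation), called at a Benjamini-Hochberg adjusted p-value under 0.05. The other probes of the members were read from the same model over 21376 detected probes. Figures were drawn with matplotlib 3.10.9 in Python 3.11.15. No batch is named in the labels or headers used here.

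The members and lists were chosen with earlier results of these data known. Named were all 5 members, the 5 genes most correlated with each of CAV1, CAV2, CAVIN1 and CAVIN3, and at most the 2 highest rises and 2 largest falls per list and comparison. Hypoxia counts are given over the 6 lists together, a choice made after the list counts were seen to be small and to move between settings. The 12 alternatives changed the background correction, the scaling, the offset, the filter on dim probes, the probe of a gene, the weights or the arrays in the fit, added the replicate number as a block, or used the authors' processed values, and each array was left out in turn. Results with a member below background in a group compared had no alternatives unless a bound was given.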

Additional observations from a re-analysis of the deposited data

Results flagged for a closer look

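In 8 comparisons an effect on a caveolin or cavin gene differed between oxygen levels or between lines by limma's test of that difference itself. Differences in which a side of either effect had no array above background were left out. Between oxygen levels, 0.728% of all genes had a called difference in DU 145 and 0.728% in 22Rv1. Between oxygen levels, the vorinostat effect in hypoxia minus that in normoxia was -1.28 ± 0.13 (SE) for CAVIN1 in 22Rv1 (adjusted p = 6.6e-07) and -0.96 ± 0.22 for CAVIN3 in DU 145 (adjusted p = 0.0271). The CAVIN3 value lost its call without any 1 of 6 of the 12 DU 145 arrays.

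Between lines, the vorinostat effect on CAV1 differed in all 3 pairs, by -0.82 ± 0.20 for DU 145 minus PC-3 (adjusted p = 0.0023), by -2.41 ± 0.20 for DU 145 minus 22Rv1 (adjusted p = 8.66e-11) and by -1.59 ± 0.20 for PC-3 minus 22Rv1 (adjusted p = 4.03e-07). For CAV2 it differed by -0.94 ± 0.18 for DU 145 minus PC-3 (adjusted p = 1.28e-04), and the other CAV2 probes gave -0.50 ± 0.18 (adjusted p = 0.0422) and -0.44 ± 0.20 (adjusted p = 0.119). For CAVIN1 it differed by -0.44 ± 0.09 for DU 145 minus 22Rv1 (adjusted p = 3.08e-04). That value rests on a 22Rv1 mean of unlike effects, 1.15 in normoxia and -0.14 in hypoxia. Differences of the vorinostat effect between lines were common. They were called for 31% of all genes for DU 145 minus PC-3, 39.4% for DU 145 minus 22Rv1 and 28.2% for PC-3 minus 22Rv1.

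The hypoxia effect on CAVIN1 with solvent differed by -2.21 ± 0.13 for DU 145 minus 22Rv1 (adjusted p = 5.76e-13). Of all genes, 5.76% had a called difference there. The comparisons of lines share the arrays of each line, and CAV1 in 22Rv1 was above background on 2 of 6 solvent arrays. Without background correction the CAV1 differences from 22Rv1 were -1.49 for DU 145 and -0.71 for PC-3.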

How the results depend on the processing

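Of 67 values for the members, 45 kept their direction and their side of the threshold under all 12 alternatives (11 for 2 CAVIN2 differences between lines, since CAVIN2 was never above background on all 3 arrays of a group) and with each array of the comparison left out in turn. With the probes of a gene averaged, CAV2 with vorinostat in DU 145 in normoxia was -0.28 (adjusted p = 0.168), CAV2 with hypoxia in DU 145 turned to 0.061, and CAV1 with hypoxia in PC-3 was called at 0.58. Without background correction and from the authors' processed values, CAV1 with hypoxia in PC-3 was called at 0.44 and 0.45, and CAV1 with vorinostat in 22Rv1 in normoxia was not, at 0.37 and 0.38. Where a size set against values near background has an uncorrected value beside it, the uncorrected one was smaller. The CAVIN2 bounds over PC-3 and 22Rv1 and the bounds of list genes are given without one. Median scaling gave CAVIN1 with vorinostat -0.080 in DU 145 and -0.31 in 22Rv1 in hypoxia, CAVIN3 with vorinostat in DU 145 -0.26, and CAV1 with vorinostat in PC-3 in normoxia 0.0083, and cyclic loess gave -0.0026 for the first of these and 0.085 for the last. Array weights turned that last value to 0.040, CAVIN2 with hypoxia in DU 145 to 0.17 and CAV2 in DU 145 minus PC-3 to 0.077, and called CAV2 with vorinostat in PC-3 at 0.35. With the compared lines alone, CAVIN2 with vorinostat in DU 145 (-0.50, and at least 1.07-fold in hypoxia) and CAVIN3 drug by oxygen in DU 145 (-0.96) lost their calls. The cause of these changes was not tested.

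Same-numbered arrays did not all correlate over 0.1 in any line, so the numbers were not taken as pairs, although in PC-3 those of replicates 1 and 3 did (0.12 to 0.36 and 0.20 to 0.45). Their correlations with PC-3 arrays of other numbers were lower, at -0.34 to 0.09 and -0.35 to 0.05. For replicate 2 of PC-3 the 2 ranges overlapped, at 0.02 to 0.47 and -0.35 to 0.09. In DU 145 the ranges were apart for replicate 1, at 0.099 to 0.27 against -0.24 to 0.069. In 22Rv1 they were apart for replicate 3, at 0.03 to 0.098 against -0.098 to 0.012. With the replicate number as a block, CAV2 with vorinostat in PC-3 was called at 0.24 (adjusted p = 0.026), and no other member call changed. The lowest correlation between same-numbered arrays was -0.033, for replicate 2 of DU 145.

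Leaving out arrays in turn gave these ranges. For vorinostat they were -0.61 to -0.090 for CAVIN2 in DU 145 in normoxia, -0.044 to 0.043 for CAVIN1 in DU 145 in hypoxia, -0.34 to -0.24 for CAVIN3 in DU 145, -0.20 to 0.18 for CAV1 in PC-3 in normoxia and -0.0073 to 0.30 for CAV2 in PC-3 in hypoxia. For hypoxia they were -0.41 to 0.11 for CAVIN2 in DU 145, 0.30 to 0.68 for CAV1 and -0.25 to 0.20 for CAV2 in PC-3, -0.11 to 0.30 for CAV1 in 22Rv1 and -0.34 to 0.035 for CAV1 in DU 145 minus PC-3. For drug by oxygen they were -0.24 to 0.061 for CAV2 and -1.04 to -0.84 for CAVIN3 in DU 145 and -0.31 to 0.14 for CAV2 in PC-3, and the CAV2 level of DU 145 minus PC-3 ran from -0.28 to 0.14.

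Counts over all genes moved more. Drug by oxygen called 90 genes in DU 145 (4 with DU 145 alone, 193 with the block), 7 in PC-3 (0 to 46) and 90 in 22Rv1 (up to 269 with array weights), and 49 to 106, 0 to 18 and 64 to 87 with single arrays left out. Hypoxia called 2086 in PC-3 (1048 with PC-3 alone) and 2492 in 22Rv1 (4184 with array weights), and its differences between lines 352, 712 and 641 (150 to 637, up to 1327 and up to 985). Vorinostat in PC-3 in normoxia called 3176 (2103 with PC-3 alone). The lists under hypoxia called 7, 14 and 11 genes (up to 12, down to 6 and up to 21), and 5 to 8, 6 to 15 and 5 to 8 with single arrays left out. With vorinostat, cholesterol traffic in DU 145 called 3 (up to 6), the YAP and TEAD list 3 in PC-3 (up to 5) and 3 in 22Rv1 (up to 6), and the neck list 5 in 22Rv1 (3 under median scaling). Median scaling moved the median of all genes by over 0.1 for DU 145 minus 22Rv1, to -0.18, and for drug by oxygen in PC-3, to -0.09. Values near background are limited by signal, as for CAVIN2 and for CAV1 in 22Rv1.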
